A study of Mus musculus with 2 samples.

Results

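Collagen chains were described in heart tissue of mice after myocardial infarction. They were taken as every row of the deposited tables whose symbol has the form Col, a type number, the letter a and a chain number, which gave 44 of 24346 gene symbols. By structure, 11 of them are fibrillar, 9 fibril-associated, 9 network-forming (types IV, VIII and X), 6 beaded (type VI) and 2 multiplexin chains, and a further 4 transmembrane and 3 other chains were kept apart. The lipid-transfer gene Col4a3bp is named after a collagen but lacks this form and was not a member.

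The study has 2 RNA sequencing libraries, both with the age label day 14 and both from hearts described as HFD-MI, read here as a high-fat diet and myocardial infarction. The treated heart had received probucol, a lipid-lowering antioxidant drug, while the second heart was untreated. With 1 library per group there is no replicate check and no test between the treatments was possible, and every statement describes these libraries rather than the conditions. The labels give no strain or genotype, and the column headers carry the marks HypoE and CM, which the labels do not explain, so an allele or a tissue fraction shared by both groups may not be named here. The labels do not state how many animals gave each library or which part of the heart was taken.

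Collagens are secreted proteins in which 3 chains wind around each other into a helix. Fibrillar types I, III and V form the load-bearing fibrils of the cardiac interstitium and of the scar that replaces infarcted muscle, and are made mainly by fibroblasts. Type IV forms the sheet-like network of basement membranes around muscle cells and vessels, type VI forms beaded filaments that link membranes to fibrils, and type VIII forms a network in vessels and in remodelling heart. Before secretion the chains are hydroxylated and folded in the endoplasmic reticulum, and outside the cell propeptides are removed and fibrils are crosslinked.

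Values are FPKM, sequenced fragments scaled to transcript length and to library size, so levels of different chains may be set side by side. How library size was scaled is not stated. For chains with several transcripts the length used is not known, so their levels are less sure. Chains were called measured at a mean of at least 0.5 FPKM over both libraries. The log2 ratio is log2((FPKM probucol + 0.5)/(FPKM untreated + 0.5)), which understates differences of low genes, and a gene was counted as lower or higher at 1.5-fold on this scale. Steps between low values gave the depth: each FPKM over 1 kb of effective transcript equals 6.70 fragments with probucol and 7.47 fragments without. From these steps the fragments behind each chain were estimated. Intervals of plain FPKM ratios are exact binomial 95% intervals (Clopper-Pearson). They cover counting error alone and no variation between animals or preparations, because each group has 1 library. PCR copies of a molecule are not independent, so the intervals may be too narrow even for counting error. Of the 44 chains, 27 have 1 curated RefSeq transcript with a known length, and for the other 17 the fragments are approximate.

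Collagen transcripts were lower in the probucol library in most classes, and summed fibrillar chains were lower by more than Col4a1 and Col4a2 of the basement membrane. All 44 chains together summed to 455 FPKM in the probucol library, against 841 FPKM in the untreated library. Of the 21 measured chains, 15 were at least 1.5-fold lower with probucol, while 12.0% of the 12882 measured genes were. In the other direction 1 chain, Col8a2, was at least 1.5-fold higher, against 5.52% of measured genes. It passed the filter through the probucol library alone, and when it was left out 15 of 20 chains were lower and 0 higher. At 2-fold, 4 chains were lower (Col3a1, Col8a1, Col5a2 and Col14a1), beside 5.14% of measured genes. Col8a2 was the 1 chain higher at 2-fold, beside 1.07%. The median log2 ratio of the measured chains was -0.75, beside 0.01 for all measured genes. In whole tissue, fewer cells of a type and less RNA per cell cannot be told apart. When totals were equalised without the 10 most abundant genes, 14.6% of all genes were lower and 3.42% higher, and 16 chains were lower and 1 higher.

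**Figure D1:**
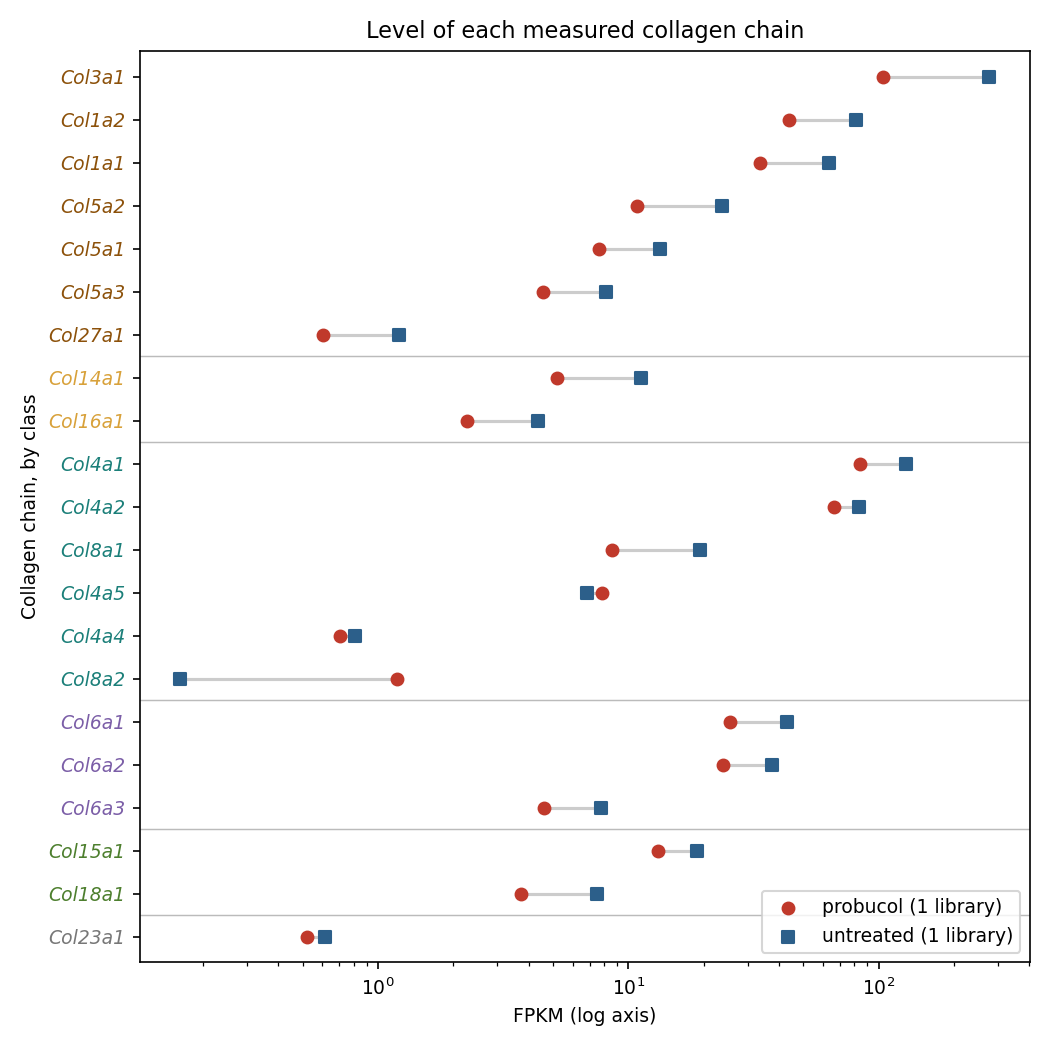
Level of the 21 measured collagen chains in FPKM on a log axis, with 1 point for the probucol library (red circle) and 1 for the untreated library (blue square), grouped by class and coloured by class on the axis. The probucol point lies left of the untreated point for 19 chains, and right of it for Col4a5 and Col8a2.

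Type III collagen carried the largest fibrillar difference. Col3a1, the single chain of type III collagen (chromosome 1, 45311538 to 45349706, plus strand, GRCm38/mm10), had 104 FPKM in the probucol library, against 277 FPKM in the untreated library. It was the most abundant collagen in both libraries and ranked 852nd of all genes with probucol and 381st without. About 3719 and 11077 fragments stand behind these values, and the plain ratio lies between 0.361 and 0.389 by counting error. Col3a1 alone made up 22.8% of the summed collagen FPKM with probucol and 32.9% without.

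Type I collagen, the stiff main component of scar fibrils, was lower by less. Col1a1 (chromosome 11, 94936224 to 94953042) had 33.5 FPKM in the probucol library, against 63.4 FPKM in the untreated library, a log2 ratio of -0.91. Its partner Col1a2 (chromosome 6, 4504814 to 4541544) had 43.98 FPKM with probucol and 81.0 FPKM without, a log2 ratio of -0.87. These chains assemble together, and their levels kept nearly the same proportion, with 0.762 Col1a1 per Col1a2 with probucol and 0.783 without. The ratio of these proportions was 0.973, with an interval from 0.887 to 1.07. Type III relative to type I was lower: there were 3.10 Col3a1 per Col1a1 with probucol and 4.36 without, a ratio of 0.709 with an interval from 0.657 to 0.766.

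Type V chains, which co-assemble with type I and set fibril diameter, were lower as well. Col5a2 (chromosome 1, 45374321 to 45503282), on the same chromosome as Col3a1, had 10.9 FPKM in the probucol library, against 23.6 FPKM in the untreated library. Its log2 ratio of -1.08 was the lowest of the fibrillar chains after Col3a1. Col5a1, the chain that Col5a2 pairs with, had 7.66 against 13.4 FPKM, a log2 ratio of -0.76. Col5a1 per Col5a2 was therefore 0.705 with probucol and 0.566 without, 1.25 times as high, with an interval from 1.06 to 1.46. Col5a3, a further chain of the type, had 4.57 FPKM with probucol and 8.18 FPKM without.

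The remaining fibrillar chains were low or near detection. Col27a1, a fibrillar collagen of cartilage and other tissues, had 0.603 FPKM in the probucol library, against 1.21 FPKM in the untreated library, from 30 and 67 fragments. With a pseudocount of 1 its log2 ratio was -0.46, which no longer passes 1.5-fold. Col11a1, Col11a2, Col24a1 and Col2a1, among them the chains of cartilage fibrils, had at most 0.0830 FPKM with probucol and 0.114 FPKM without, from at most 3 and 6 fragments. Thus 7 of 11 fibrillar chains were measured, and all 7 were at least 1.5-fold lower, with log2 ratios from -1.41 to -0.63.

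The promoters of Col3a1 and Col1a2, abundant fibrillar chains that were lower together, are shown. Those of both type VIII chains are shown because these genes differed in opposite directions. Each is the 250 bases before the annotated start in RefSeq (GRCm38.p6), written in the direction of transcription. For Col1a2 that start (4505618) lies inside the GENCODE gene span given above, which begins at 4504814. Capitals mark short promoter motifs, searched on both strands. The TATA box was searched as the letters TATAAA. For the CCAAT box these were the letters of its name. The GC box was searched as GGGCGG.
Col3a1, chr1:45311288-45311537, plus strand: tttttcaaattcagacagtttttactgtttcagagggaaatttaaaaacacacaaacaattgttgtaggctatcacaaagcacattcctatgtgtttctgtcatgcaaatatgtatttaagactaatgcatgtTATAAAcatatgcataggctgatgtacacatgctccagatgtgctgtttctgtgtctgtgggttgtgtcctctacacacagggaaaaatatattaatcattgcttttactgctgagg
Col1a2, chr6:4505368-4505617, plus strand: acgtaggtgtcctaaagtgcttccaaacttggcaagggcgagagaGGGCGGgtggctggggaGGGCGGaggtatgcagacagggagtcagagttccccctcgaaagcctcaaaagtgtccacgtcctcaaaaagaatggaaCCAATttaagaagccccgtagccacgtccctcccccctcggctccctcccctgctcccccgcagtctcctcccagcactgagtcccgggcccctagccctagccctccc
Col8a1, chr16:57754738-57754987, minus strand: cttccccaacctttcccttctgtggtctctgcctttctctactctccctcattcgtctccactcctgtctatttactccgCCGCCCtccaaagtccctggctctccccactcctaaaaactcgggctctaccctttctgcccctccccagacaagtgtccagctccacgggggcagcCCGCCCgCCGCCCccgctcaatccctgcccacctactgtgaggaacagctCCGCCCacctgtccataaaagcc
Col8a2, chr4:126286544-126286793, plus strand: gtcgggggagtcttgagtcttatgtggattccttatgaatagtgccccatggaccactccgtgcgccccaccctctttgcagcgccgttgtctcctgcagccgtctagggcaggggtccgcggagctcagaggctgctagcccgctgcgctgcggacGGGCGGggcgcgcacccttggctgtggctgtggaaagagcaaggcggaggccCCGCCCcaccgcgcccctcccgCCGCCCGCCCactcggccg

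These windows differ in composition. That of Col3a1 has 35.2% G and C and holds 1 TATA box, while those of Col1a2, Col8a1 and Col8a2 have 62.0%, 60.8% and 70.0% and hold 2, 4 and 4 GC boxes, of which the last 2 of Col8a2 overlap each other. Col1a2 also holds 1 CCAAT box, 109 bases before the start. Promoter windows were found for 35 of the 44 chains, 38 windows in all. Col1a1 and Col5a2 were among the 9 chains without a window. A GC box was present in 22 of these 38 windows (57.9%), against 32.7% of 32851 promoter windows of all genes. A CCAAT box was present in 34.2% of collagen windows and 33.8% of all, and a TATA box in 13.2% and 12.4%. A match of these letters is a description and not a binding site.

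Fibril-associated collagens coat the surface of fibrils and connect them to the surrounding matrix. Col14a1, a fibril-associated chain known from skin and tendon (chromosome 15, 55307750 to 55520803), had 5.19 FPKM in the probucol library, against 11.3 FPKM in the untreated library, a log2 ratio of -1.05. Col16a1 had 2.27 FPKM with probucol and 4.37 FPKM without, from 76 and 163 fragments, a log2 ratio of -0.81. Both were at least 1.5-fold lower, and they were the measured members among 9. Col12a1, a close relative of Col14a1, missed the filter with 0.156 against 0.430 FPKM, from 12 and 36 fragments, and its plain ratio lies between 0.176 and 0.731. Col20a1, Col22a1, Col9a2 and Col9a3 rest on at most 7 fragments in either library, and Col9a1 and Col19a1 were listed at 0 in both.

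**Figure D2:**
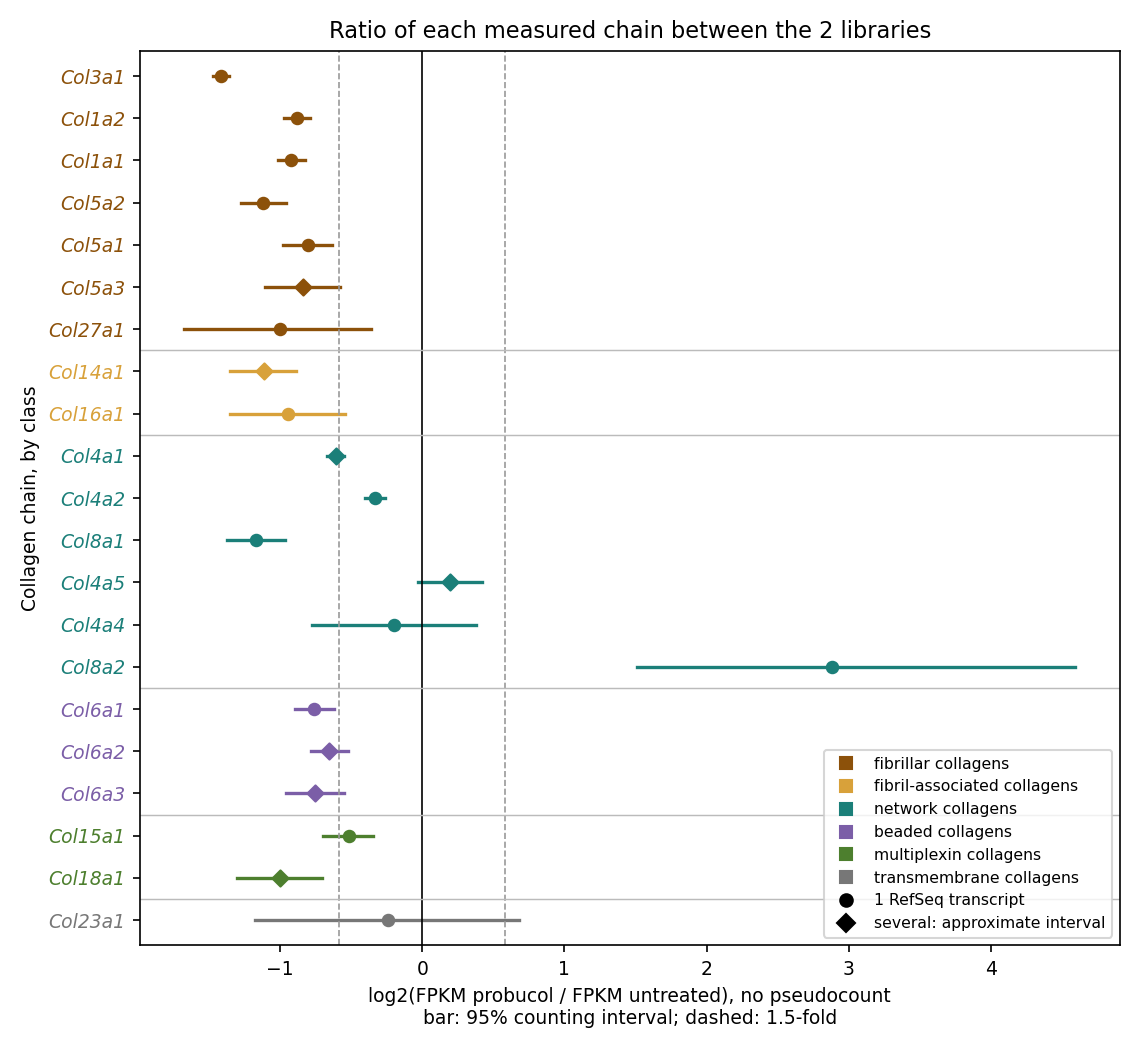
Log2 of the plain FPKM ratio of probucol over untreated for the 21 measured chains, with 95% counting intervals and dashed lines at 1.5-fold. Intervals of 17 chains lie below 0, that of Col8a2 lies above 0, and those of Col4a4, Col4a5 and Col23a1 include 0.

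Network collagens differed in both directions, upward past 1.5-fold in Col8a2 alone. Col8a2 passed the filter through the probucol library alone. Without it 2 of 5 measured network chains were lower and 0 higher (beside 12.0% and 5.52% of all genes), with a median log2 ratio of -0.33. The chains Col4a1 and Col4a2, which form the common basement membrane trimer, were abundant and lower by less than fibrillar chains. Col4a1 (chromosome 8, 11198423 to 11312826, minus strand) had 84.1 FPKM in the probucol library, against 128 FPKM in the untreated library, a log2 ratio of -0.61. Col4a2 (chromosome 8, 11312805 to 11449287, plus strand) had 66.1 FPKM with probucol and 83.1 FPKM without, a log2 ratio of -0.33 that does not pass 1.5-fold. These genes start head to head, with annotated starts 21 bases apart and a 22-base overlap of their first exons. Their levels differed unequally: Col4a1 per Col4a2 was 1.27 with probucol and 1.54 without, a ratio of 0.824 with an interval from 0.773 to 0.879. Col4a1 has several transcripts, so its fragments are approximate, and whether the counting used strand for the overlap is not stated.

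The minor type IV chains, which form the specialised basement membranes of kidney and other organs, showed no such difference. Col4a5 (chromosome X, 141475385 to 141689234) had 7.82 FPKM in the probucol library, against 6.82 FPKM in the untreated library, and the plain ratio lies between 0.981 and 1.34. Relative to Col4a1 it was higher with probucol, at 0.0930 per Col4a1 against 0.0532, a ratio of 1.75 with an interval from 1.49 to 2.06. Col4a4 had 0.708 FPKM with probucol and 0.810 FPKM without, from 47 and 60 fragments. Col4a3, which starts head to head with Col4a4, had 0.373 against 0.383 FPKM and missed the filter. Their intervals, 0.584 to 1.30 and 0.517 to 1.83, include no difference and also differences beyond 1.5-fold, downward for Col4a4 and in either direction for Col4a3. Col4a6 rests on 5 and 3 fragments.

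Type VIII collagen showed opposite differences of its 2 chains. Col8a1 (chromosome 16, 57624258 to 57754737) had 8.62 FPKM in the probucol library, against 19.4 FPKM in the untreated library, a log2 ratio of -1.12 from 283 and 710 fragments. Col8a2 (chromosome 4, 126286793 to 126314330) had 1.20 FPKM with probucol and 0.162 FPKM without, from 33 and 5 fragments. Its plain ratio of 7.36 lies between 2.86 and 24.2, and on the log2 scale with the pseudocount it was 1.36. Col8a2 passed the filter through its value in the probucol library, and at a filter of 1 FPKM no measured collagen chain was higher. Col8a1 per Col8a2 was 7.21 with probucol and 119 without, a ratio of 0.0604 with an interval from 0.0183 to 0.158. Col10a1, the chain of type X collagen in growth-plate cartilage, was listed at 0 in both libraries.

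**Figure D3:**
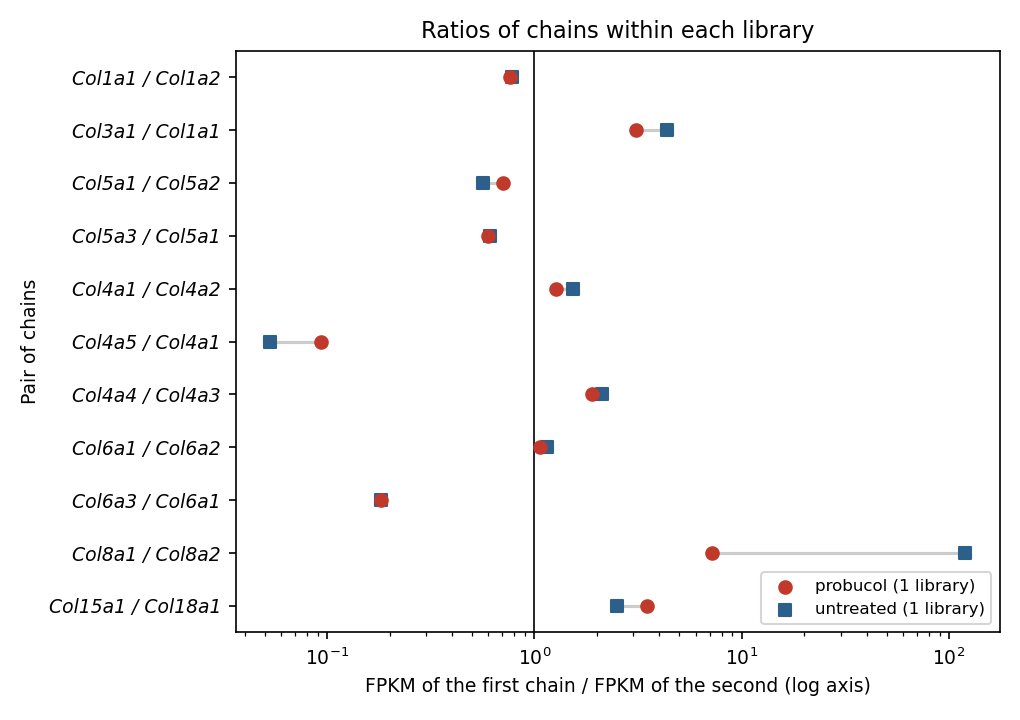
FPKM of the first chain divided by that of the second within each library, for 11 pairs of chains on a log axis, with the probucol library as red circles and the untreated library as blue squares. Col1a1 per Col1a2 and Col6a3 per Col6a1 lie nearly on top of each other, and Col8a1 per Col8a2 is the pair furthest apart, at 7.21 and 119.

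Type VI chains, whose trimer needs an equal supply of its members, differed in parallel. Col6a1 (chromosome 10, 76708792 to 76726168) had 25.5 FPKM in the probucol library, against 43.1 FPKM in the untreated library. Col6a2, on the same chromosome, had 23.8 against 37.5 FPKM, and Col6a3, the largest chain, had 4.61 against 7.79 FPKM. Their log2 ratios of -0.75, -0.64 and -0.70 lie close together, and all 3 pass 1.5-fold. Col6a3 per Col6a1 was 0.181 in both libraries, and Col6a1 per Col6a2 was 1.07 with probucol and 1.15 without, with an interval of the ratio from 0.814 to 1.06. The alternative chains Col6a5 and Col6a6 were under the filter, with 0.390 against 0.544 FPKM for Col6a6, and Col6a4 was listed at 0 in both.

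Multiplexins are basement membrane collagens with interrupted helices and carry endostatin-type domains. Col15a1 (chromosome 4, 47208161 to 47313167), known from basement membranes of heart and skeletal muscle, had 13.1 FPKM in the probucol library, against 18.8 FPKM in the untreated library. Its log2 ratio of -0.50 does not pass 1.5-fold, but reached -0.61 with equalised totals. Col18a1, the source of endostatin, had 3.74 FPKM with probucol and 7.496 FPKM without, a log2 ratio of -0.91. Col15a1 per Col18a1 was 3.50 with probucol and 2.50 without, a ratio of 1.40 with an interval from 1.10 to 1.78.

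Chains outside these classes were scarce. Of the transmembrane collagens, Col23a1 was measured, with 0.520 FPKM in the probucol library, against 0.613 FPKM in the untreated library, and an interval from 0.441 to 1.603. Col28a1, known in mice from Schwann cells of peripheral nerve, was under the filter with 0.149 against 0.766 FPKM, from 4 and 23 fragments, and a plain ratio between 0.0488 and 0.568. Col26a1 had 0.179 against 0.804 FPKM, from about 3 and 15 fragments, and a ratio between 0.0414 and 0.789. Without a filter Col26a1 and Col28a1 also pass 1.5-fold, so that 17 of 40 chains above 0 are lower, beside 11.2% of 16166 genes, and 1 is higher, beside 5.48%. At 2-fold the lower chains without a filter were the same 4, beside 4.39% of genes, and Col8a2 was again the higher chain, beside 1.07%. Among all 23 chains under the filter, 12 had the lower value with probucol, 7 the higher value and 4 were listed at 0 in both. Intervals of 16 of the 19 with fragments include no difference.

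The make-up of collagen transcripts differed accordingly. Fibrillar chains held 45.1% of the summed collagen FPKM with probucol and 55.6% without. Most of this difference was in Col3a1, which held 22.8% with probucol and 32.9% without. Shares of the type I chains differed little, at 7.37% and 7.54% for Col1a1 and 9.67% and 9.63% for Col1a2. Network chains held 37.2% with probucol and 28.4% without, although their own sum was also lower, at 169 against 239 FPKM. Beaded chains held 11.9% and 10.6%, multiplexins 3.70% and 3.12%, and fibril-associated chains 1.77% and 1.96%. The plain ratio of class sums, probucol over untreated, was 0.438 for fibrillar, 0.488 for fibril-associated, 0.610 for beaded, 0.641 for multiplexin and 0.707 for network chains. The fibrillar value leans on Col3a1, whose own plain ratio was 0.375, beside 0.528 for Col1a1 and 0.543 for Col1a2.

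**Figure D4:**
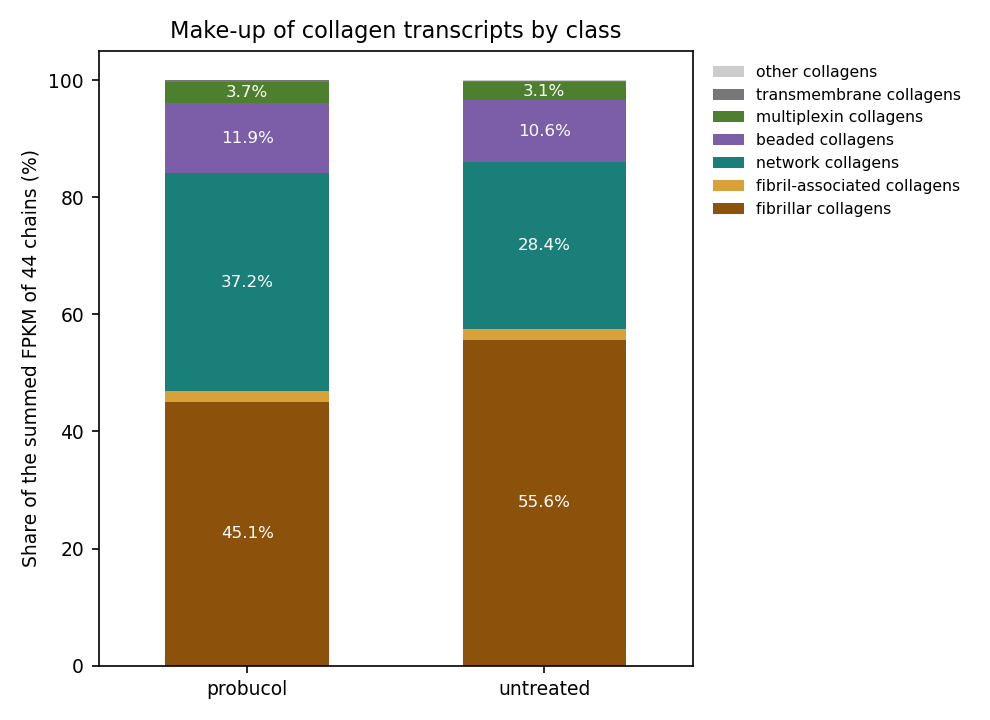
Share of each collagen class in the summed FPKM of the 44 chains, in percent, for the probucol library (left) and the untreated library (right). The fibrillar share is 45.1% with probucol and 55.6% without, and the network share 37.2% and 28.4%. Col3a1, within the fibrillar share, is 22.8% and 32.9% of the summed FPKM.

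Lists of genes that process collagen mostly had medians nearer 0 than the chains, with the degrading enzymes as the exception before genes high in the untreated library alone were left out. Of 15 enzymes and partners that hydroxylate and glycosylate the chains, 2 passed 1.5-fold downward (13.3%, near the 12.0% of all measured genes) and 0 upward, and the median log2 ratio was -0.30. Those were P4ha3 (0.555 against 1.18 FPKM, from 8 and 19 fragments, with a plain ratio between 0.178 and 1.12), a subunit of prolyl 4-hydroxylase, and P3h3 (6.04 against 9.90 FPKM), a prolyl 3-hydroxylase. Of 9 measured genes of folding, export and propeptide removal, 2 were lower (22.2%, beside 12.0% of all genes) and 0 higher (beside 5.52%), with a median of -0.25. Pcolce, which speeds removal of the C-terminal propeptide, had 47.6 FPKM in the probucol library, against 90.1 FPKM in the untreated library, and the collagen-binding protein Sparc had 309 against 543 FPKM. Serpinh1, the collagen chaperone HSP47, had 156 FPKM with probucol and 175 FPKM without.

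Crosslinking enzymes were closer to the fibrillar chains. Of 5 members, 3 passed 1.5-fold downward (60.0%, beside 12.0% of all genes) and 0 upward (beside 5.52%), and the median log2 ratio was -0.74. Lox, the lysyl oxidase that crosslinks fibrils, had 4.34 FPKM in the probucol library, against 12.4 FPKM in the untreated library, a log2 ratio of -1.41 like that of Col3a1. Loxl2, its relative, had 11.0 FPKM with probucol and 23.5 FPKM without. Small proteoglycans that bind fibrils had 3 of 8 measured members lower (37.5%, beside 12.0% of all genes) and 0 higher (beside 5.52%), with a median of -0.50, led by Bgn (164 against 295 FPKM), the gene of biglycan, and Lum (68.8 against 123 FPKM), that of lumican.

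Of 8 measured collagen-degrading enzymes, 5 passed 1.5-fold downward and 0 upward (beside 12.0% and 5.52% of all genes), with a median log2 ratio of -0.83. Mmp13 and Mmp8 passed the filter through their values in the untreated library alone, and of the other 6 members 3 were lower, with a median of -0.64. Ctsk, the collagen-cleaving cathepsin K, had 12.4 FPKM in the probucol library, against 25.9 FPKM in the untreated library. Mmp13, a collagenase, had 0.0605 against 1.14 FPKM, from 1 and 21 fragments, with a plain ratio between 0.00128 and 0.330. The membrane protease Mmp14 had 13.7 FPKM with probucol and 25.7 FPKM without, and the gelatinase Mmp2 had 32.2 against 44.6 FPKM.

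Most receptors and basement membrane partners stayed within 1.5-fold. Of 9 measured collagen receptors 2 passed 1.5-fold downward (22.2%, beside 12.0% of all genes) and 0 upward (beside 5.52%), and the median log2 ratio was -0.31. They were Lair1 (2.101 against 6.05 FPKM), an inhibitory receptor of leukocytes, and Mrc2 (3.55 against 6.44 FPKM), which takes up collagen for degradation. Ddr2, the tyrosine kinase receptor of fibroblasts for fibrillar collagen, had 11.0 FPKM in the probucol library, against 13.7 FPKM in the untreated library. Of 12 laminins, nidogens and other partners of type IV collagen, 0 were lower (beside 12.0% of all genes) and 1 was higher (beside 5.52%), Lama5 (23.4 against 15.0 FPKM), a laminin chain, with a median of -0.27. With equalised totals Lama5 no longer passed 1.5-fold.

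Markers of several cell types also differed, and their part in these differences was not tested. The counts stand beside 12.0% lower and 5.52% higher among all measured genes. Of 9 measured fibroblast markers, 5 passed 1.5-fold downward and 0 upward, and the median log2 ratio was -0.65; their summed level was 858 FPKM with probucol and 920 FPKM without, and Lamp5 was listed at 0 in both. Pdgfra, a receptor that marks cardiac fibroblasts, had 7.37 FPKM in the probucol library, against 10.4 FPKM in the untreated library. Gsn, the actin-severing protein gelsolin, made up much of the sums and lay the other way, with 449 FPKM with probucol and 342 FPKM without. Without Gsn the fibroblast markers summed to 409 and 578 FPKM. Of 10 markers of activated fibroblasts 4 were lower and 0 higher, with a median log2 ratio of -0.45. Their sum was 169 against 312 FPKM, of which Postn, the gene of periostin, held 79.5 and 181 FPKM. All 8 macrophage markers were lower, with a median log2 ratio of -1.55 and sums of 723 and 2514 FPKM. Of 8 cardiomyocyte markers 2 were at least 1.5-fold higher, with sums of 60216 and 43948 FPKM, so heart muscle transcripts were present in both libraries. These 2, Myl2 and Ckm, lay close to the limit, at 1.51-fold and 1.55-fold. Equalised totals multiply probucol values by 0.925, which takes both under 1.5-fold. Endothelial markers had 1 of 8 lower (12.5%, near the share of all genes) and sums of 351 and 365 FPKM, and mural cell markers likewise 1 of 8 lower and sums of 270 and 319 FPKM.

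Other sources of collagen were near detection. Of 8 chondrocyte markers 6 are in the tables, 1 was measured, and their sum was 0.714 FPKM with probucol and 0.767 FPKM without, with the cartilage proteoglycan Acan at 0.0418 and 0.0187 FPKM. Schwann cell markers summed to 4.78 and 5.09 FPKM, with 0 of 3 measured past 1.5-fold. Epicardial markers summed to 3.34 and 5.08 FPKM, with Upk1b and Bnc1 at 0 in both. The 1 lower of 2 measured epicardial markers was Krt19 (0.384 against 1.15 FPKM, from 4 and 12 fragments), which passed the filter through the untreated library alone and whose plain ratio, between 0.0874 and 1.23, includes no difference. Adipocyte markers summed to 5.86 and 2.13 FPKM, from about 35 and 13 fragments, with 1 of 2 measured higher, beside 5.52% of all measured genes. The higher marker was Cfd (3.76 against 1.47 FPKM), from about 18 and 8 fragments, with a plain ratio between 1.04 and 6.67. Epidermal markers summed to 0.957 and 0.848 FPKM, with 4 of 6 listed at 0 in both.

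**Figure D5:**
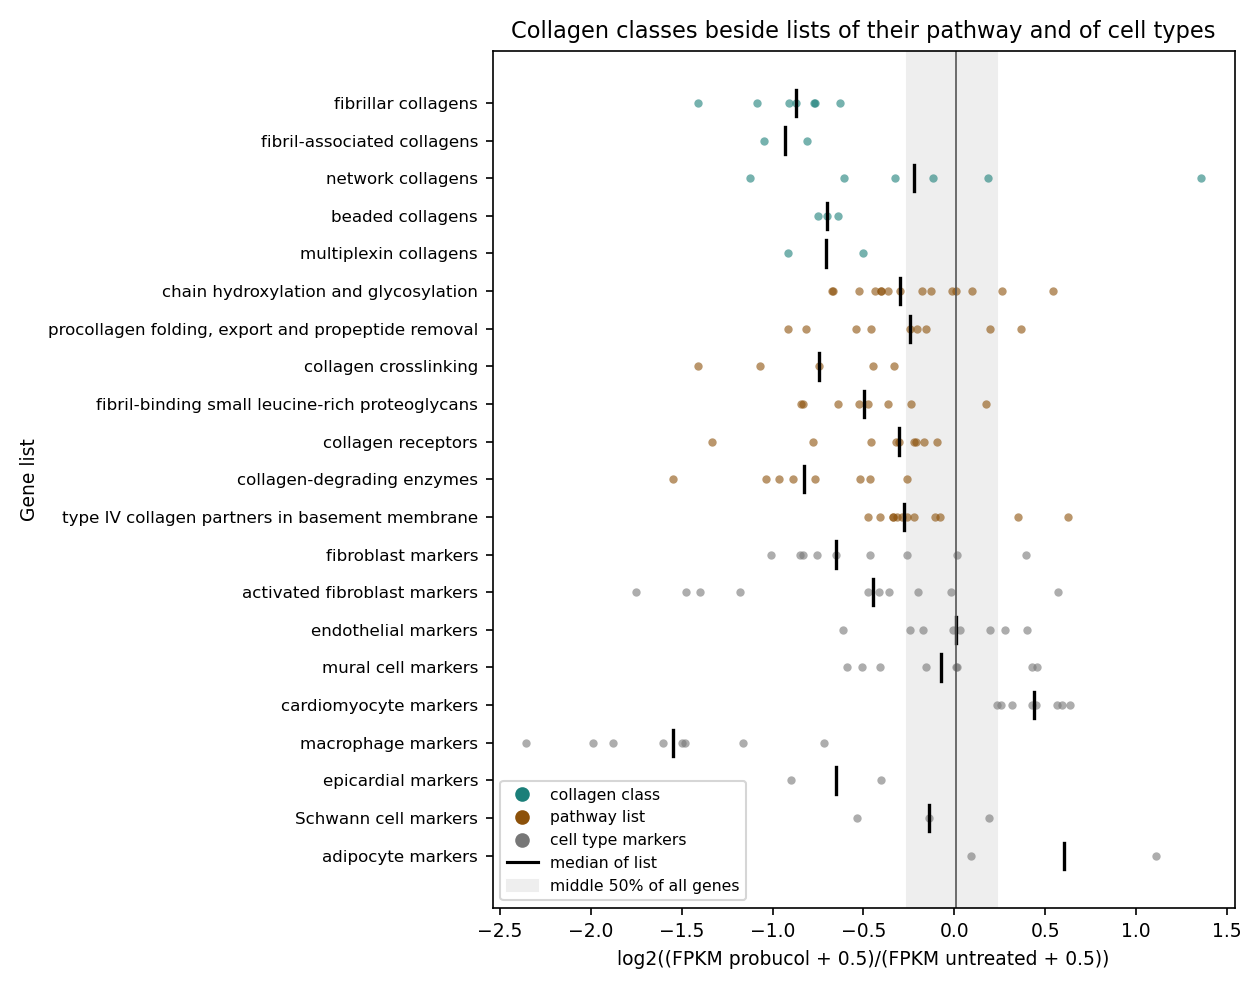
Log2 ratios, probucol over untreated with a pseudocount of 0.5 FPKM, of the measured genes of each list with at least 2 of them; points are genes, black lines medians, and the grey band the middle 50% of all measured genes. Fibrillar chains lie left of the band with a median of -0.87, network chains scatter from -1.12 to 1.36, and macrophage markers lie furthest left with a median of -1.55.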

How the data were processed

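RNA of RNAlater-preserved frozen heart was sequenced after miRNeasy extraction and TruSeq stranded mRNA preparation, per the labels' protocols. The authors deposited FPKM, 1 value per gene symbol and library. Build mm10, Cuffdiff 2.2.1, TopHat2 2.1.1 and Bowtie2 are listed in the submitters' processing notes; annotation, scaling and use of strand in counting are not stated there. Groups follow the treatment label. Members, classes and lists were chosen with earlier results of these data known. Every measured chain is named; of each of 7 pathway lists, the 2 furthest members past 1.5-fold in each direction are named, or the 1 furthest where none passes, plus 6 genes whatever their values (Serpinh1, Lox, Pcolce, Mmp2, Mmp14 and Ddr2). Gsn, Krt19, Cfd, Mmp8, Postn, Myl2 and Ckm were named after their values were seen.

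Fragments were estimated with GENCODE M21 transcript lengths less 210 bases (the longest transcript where RefSeq has several), after 68.3% and 68.7% of low values (probucol and untreated, at most 6 fragments) came out whole within 0.05 fragments. Rounding and lengths can shift small numbers by 1. The procedure was tested on simulated counts of genes with 1 transcript, so it was not tested for chains with several. Coverage of the intervals was checked on the simulated counts themselves and not on fragments recovered from FPKM. Calculations used Python 3.11.15, pandas 2.3.3 and SciPy 1.17.1. Gene coordinates are those of GENCODE M21 (GRCm38, the same assembly as mm10), and promoters those of RefSeq. Other pseudocounts, filters and scalings were tried.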

Additional observations from a re-analysis of the deposited data

How the results depend on the processing

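No paired analysis was possible because each group has 1 library and the result comes from no test; leaving out a library was not possible either. The count of chains at least 1.5-fold lower stayed between 14 and 17 under all 6 alternatives, but out of changing numbers of chains. It was 14 of 17 at a filter of 1 FPKM and 17 of 40 without a filter. Of all genes, between 9.98% and 14.6% were lower under these alternatives, and between 3.42% and 6.76% higher. Without a filter the median log2 ratio was -0.28 for 40 chains above 0, -0.76 for 11 fibrillar and -0.14 for 7 fibril-associated chains, when 19 chains under the filter enter, and 1 collagen receptor was higher. With totals equalised without the 10 most abundant genes, the median of all genes moved to -0.09; the log2 ratio of summed FPKM was -1.001 for all chains, -1.30 for fibrillar, -0.61 for network and -0.83 for beaded chains, the fibrillar median was -0.98, and 0 type IV partners were higher. At a filter of 1 FPKM, 0 chains were higher, 1 hydroxylation gene was lower and 3 degrading enzymes were lower, because fewer genes passed. With a pseudocount of 1, 1 hydroxylation gene was lower, and with 0.1, 1 was higher. Of 122 values of single measured chains under these alternatives, 113 lay inside the counting interval of the chain's plain ratio and 0 changed sign. Outside it were 5 with equalised totals (Col1a1, Col1a2, Col3a1, Col4a1 and Col4a2) and 4 of Col8a2, whose log2 ratio of 1.36 with the pseudocount is itself below that interval and was 0.92 with a pseudocount of 1. Pseudocounts do not enter summed FPKM. Depth limits chains under 0.5 FPKM: a count of 0 allows up to 3 fragments.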

Other observations

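Several other proteins carry a collagen-like helix without being collagens. From a list of 25 such genes, written after the collagen values were seen, 22 were measured, 12 passed 1.5-fold downward with probucol and 1 upward, beside 12.0% and 5.52% of all measured genes, with a median log2 ratio of -0.77. Marco passed the filter through the untreated library alone, and without it 11 of 21 were lower, with a median of -0.70. The lowest were receptors and complement proteins of macrophages. Marco, a scavenger receptor, had 0.420 FPKM with probucol and 5.95 FPKM without, from 5 and 76 fragments. Msr1, another scavenger receptor, had 6.93 FPKM with probucol and 27.1 FPKM without, and C1qc, a chain of complement C1q, had 153 against 469 FPKM. Colq, the collagen-tailed anchor of acetylcholinesterase, was the member that was higher, with 4.09 FPKM with probucol and 2.34 FPKM without, from 72 and 46 fragments.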
